A study of Mus musculus with 39 samples.

Results

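The fragments described here are the DpnII restriction fragments that the enhancers R1 and R2 of the mouse α-globin cluster contacted, with the 2 enhancers kept apart as separate viewpoints. All DpnII fragments of chr11:31925000-32400000 (mm9) were taken, a window of 475 kb, and the 14 fragments within 1 kb of either enhancer were left out. This left 1089 members of the 295448 DpnII fragments of chromosome 11, with a median length of 298 bases (5 to 3399). Of these, 1056 held at least 1 read in any of the 16 columns (8 libraries, 2 viewpoints). Members with a read numbered 860 in the 3 MFL libraries and 1056 in the 3 mES libraries.

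NG Capture-C counts how often a chosen viewpoint fragment is ligated to every other fragment after chromatin is cross-linked, digested and religated. MFL libraries (3 replicates, wild type, C57Bl6) came from erythroblasts grown from disaggregated mouse foetal liver, which were depleted of Ter119-positive cells, sorted on CD44 and cell size, and differentiated. The strain is that of the labels, while the study's methods state a mixed background for its mice. The sample descriptions and the study's methods give 30 h of differentiation for them, whereas their time field gives 0 h, and 30 h is used here. mES libraries (3 replicates) came from E14, a single wild type embryonic stem cell line of the 129/Ola strain, so that cell type and strain cannot be told apart in comparisons with MFL. WT and AMKO libraries (1 each, C57Bl6, foetal liver erythroblasts at 30 h) differ in that AMKO lacks a region of about 16 kb with both α-globin genes.

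R1 and R2 belong to a cluster of erythroid enhancers that lie mostly inside introns of Nprl3, a widely expressed gene encoding a subunit of a nutrient-sensing complex. In erythroid cells such enhancers are bound by GATA and NF-E2 family factors and drive the adult α-globin genes Hba-a1 and Hba-a2, which lie downstream of the enhancers. Sites bound by the architectural protein CTCF flank the region on both sides. The R1 viewpoint fragment is chr11:32145277-32146568 (1292 bases) and the R2 viewpoint fragment is chr11:32151060-32151883 (824 bases). Both are intronic in Nprl3, and their centres are 5.549 kb apart. A fragment upstream of R1 (toward Mpg and Rhbdf1) is thus closer to R1 by this distance, and a fragment downstream of R2 (toward the globin genes) is closer to R2.

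The sequences of both enhancers are shown because they are the viewpoints that every value below is counted from. Each is the 300-base stretch of the viewpoint fragment with most matches (mm9, plus strand), with AGATAA (the GATA factor motif, also as TTATCT) and TGANTCA (the core bound by NF-E2 and AP-1 factors) in capitals.
R1 enhancer, chr11:32145658-32145957: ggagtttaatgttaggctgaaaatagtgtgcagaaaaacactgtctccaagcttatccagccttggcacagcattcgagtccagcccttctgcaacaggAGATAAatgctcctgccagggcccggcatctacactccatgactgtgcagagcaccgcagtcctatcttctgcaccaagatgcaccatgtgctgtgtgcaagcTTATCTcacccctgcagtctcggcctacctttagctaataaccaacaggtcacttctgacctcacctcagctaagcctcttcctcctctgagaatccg
R2 enhancer, chr11:32151060-32151359: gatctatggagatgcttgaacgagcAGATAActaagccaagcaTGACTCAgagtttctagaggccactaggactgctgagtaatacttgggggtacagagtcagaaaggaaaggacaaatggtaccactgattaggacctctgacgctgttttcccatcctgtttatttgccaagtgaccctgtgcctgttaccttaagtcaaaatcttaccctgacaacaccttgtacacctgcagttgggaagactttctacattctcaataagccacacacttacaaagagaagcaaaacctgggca
On both strands, the whole R1 viewpoint fragment held 3 matches to AGATAA and 0 to TGANTCA, whereas the whole R2 viewpoint fragment held 1 and 2. Of the 1583 stretches of 300 bases that tile the window, 16.55% held AGATAA and 8.023% held TGANTCA. These counts describe letters and not bound sites.

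Some member fragments that differed between the viewpoints are shown next. They come from the 5 smallest adjusted p-values of each comparison and direction. Only fragments of at most 300 bases that overlap no untranslated region are printed. They run from one GATC cutting site to the next with both sites in capitals (mm9, plus strand). Longer fragments with smaller adjusted p-values are thus not shown, and 1st and 2nd give the order of printing and not a rank.
Higher from R1, 1st fragment, chr11:32140706-32140854: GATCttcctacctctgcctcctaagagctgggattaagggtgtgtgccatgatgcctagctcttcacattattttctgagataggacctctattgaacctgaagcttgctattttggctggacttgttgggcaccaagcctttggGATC
Higher from R1, 2nd fragment, chr11:32139482-32139726: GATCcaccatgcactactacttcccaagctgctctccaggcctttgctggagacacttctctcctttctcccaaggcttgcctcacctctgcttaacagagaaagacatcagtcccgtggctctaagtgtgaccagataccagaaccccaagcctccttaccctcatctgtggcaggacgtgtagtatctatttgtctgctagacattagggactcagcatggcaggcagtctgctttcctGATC
Higher from R2, 1st fragment, chr11:32153290-32153558: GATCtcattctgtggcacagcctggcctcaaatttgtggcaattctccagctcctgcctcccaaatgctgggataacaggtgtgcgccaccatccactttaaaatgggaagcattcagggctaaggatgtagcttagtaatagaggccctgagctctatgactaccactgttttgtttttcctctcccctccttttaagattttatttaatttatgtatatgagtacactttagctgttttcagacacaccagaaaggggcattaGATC
Higher from R2, 2nd fragment, chr11:32155100-32155318: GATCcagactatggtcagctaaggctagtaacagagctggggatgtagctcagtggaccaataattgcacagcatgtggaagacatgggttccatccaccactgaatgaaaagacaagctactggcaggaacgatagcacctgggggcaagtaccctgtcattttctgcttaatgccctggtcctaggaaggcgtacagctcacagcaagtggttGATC
All 4 lie in introns of Nprl3, the R1 pair upstream of R1 and the R2 pair downstream of R2. None holds AGATAA or TGANTCA.

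Reporter reads per viewpoint ranged from 5332 to 16459 in MFL and from 31013 to 46510 in mES, and were 35195 (R1) and 54283 (R2) in WT and 51314 and 81841 in AMKO. Values below are contacts per 100000 reads of the viewpoint on chromosome 11. On that scale 3 reads, the level under which a value is not read here, were worth 28.0 to 84.8 in MFL, 7.48 to 12.6 in mES, 8.88 to 12.6 in WT and 6.10 to 9.09 in AMKO, so single fragments are least certain in MFL. Chromosome 11 held 63.1% to 69.8% of reporter reads in MFL and 77.9% to 88.1% in mES. Contact levels compared between MFL and mES therefore depend on the scale chosen. The window held 59.1% to 62.0% of chromosome 11 reads in MFL and 58.2% to 63.7% in mES. It held 60.1% from R1 (95% Wilson interval 59.5% to 60.8%) and 63.9% from R2 (63.4% to 64.4%) in WT, and 45.8% (45.3% to 46.4%) and 45.7% (45.3% to 46.1%) in AMKO, so contact levels of WT and AMKO depend on the scale chosen. Replicates of MFL differed by 0.825 to 1.35 times counting noise (chi-square per degree of freedom) and those of mES by 1.03 to 1.12 times. The WT library differed from the MFL libraries by 1.55 to 2.57 times counting noise, and is used as a library apart from them.

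R1 and R2 gave profiles of the same outline, and the ratio of R1 over R2 had opposite signs just upstream of R1 and just downstream of R2. In all 8 libraries R1 had more contacts than R2 between HS39.5 (the upstream CTCF site, in an exon of Nprl3) and R1, and fewer than R2 between R2 and Hba-1, the Hba-a1 viewpoint of the study. Between Hba-1 and Hba-2 the enhancers were close to equal in MFL and mES. From Hba-2 to the downstream CTCF +44 site, which is further from R1 than from R2, R1 had more contacts in MFL, WT and AMKO, and nearly the same number in mES.

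**Figure D1:**
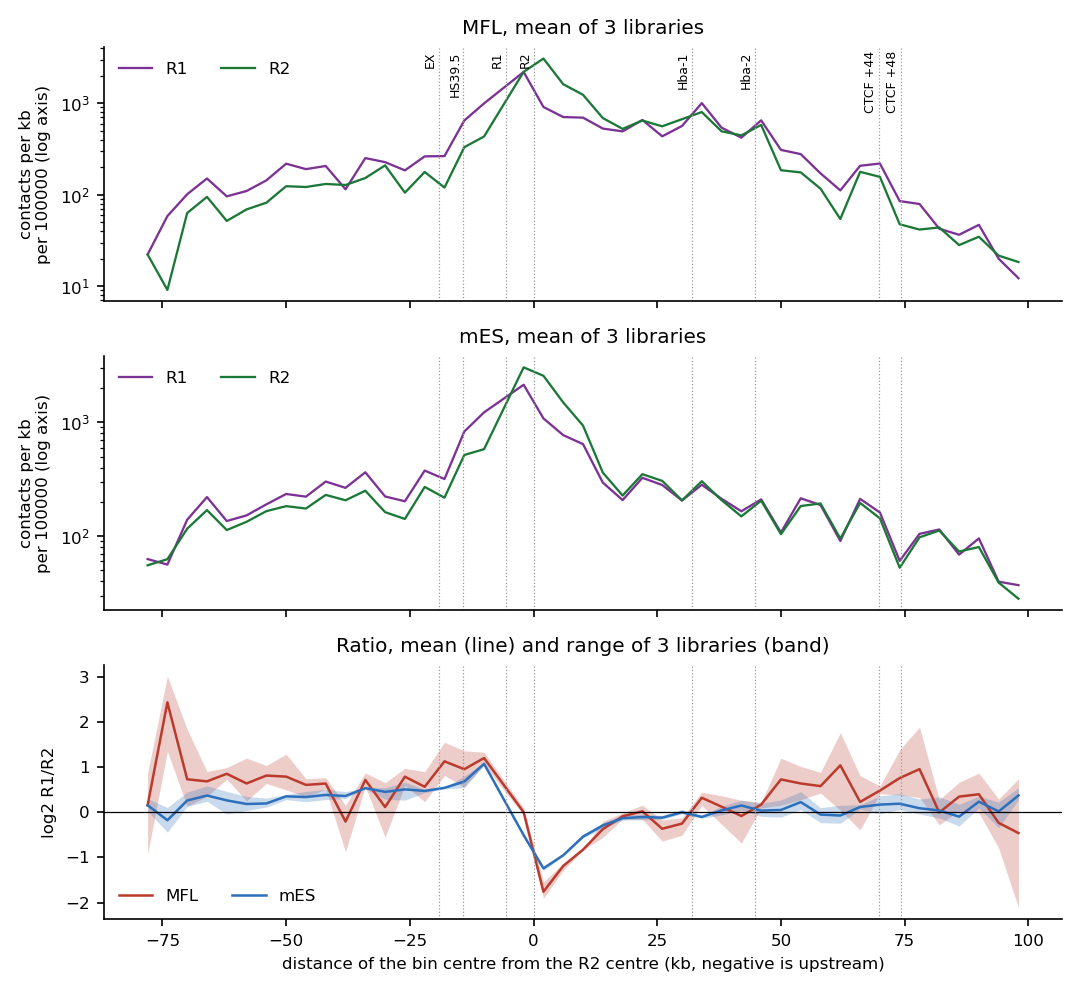
The upper panels plot contacts per kb per 100000 chromosome 11 reads (log axis, bins of 4 kb) from R1 and from R2 against the distance from the centre of R2 in kb, as the mean of 3 MFL or 3 mES libraries, with the named sites as dotted lines. The lowest panel gives the log2 ratio of R1 over R2 as the mean and range of 3 libraries, which lies above 0 just upstream of R1 and below 0 just downstream of R2 in both cell types.

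The 17 fragments between HS39.5 and R1 (6.955 kb) made more contacts with R1 in every library. In the 3 MFL libraries R1 made 865, 1004 and 958 contacts per kb there and R2 made 447, 434 and 420. In mES cells the values were 1273, 1123 and 1138 from R1 and 625, 554 and 606 from R2. In each cell type every value from R1 exceeded every value from R2. The log2 ratio of R1 over R2 was 1.12 ± 0.14 (SD, n = 3) in MFL and 0.98 ± 0.065 in mES, and the cell types differed by 0.13 (SE 0.091, two-sided exact permutation test, p = 0.3).

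The 80 fragments between R2 and Hba-1 (30.023 kb, mostly Nprl3 and the ζ-globin gene Hba-x) showed the reverse. R1 made 604, 593 and 597 contacts per kb in MFL and R2 made 983, 1022 and 1027. In mES cells R1 made 443, 431 and 444 and R2 made 726, 686 and 717. On the chromosome 11 scale both enhancers thus had more contacts per kb here in MFL than in mES, with no overlap between the groups. The cell types differ in their share of reads on chromosome 11. As a share of all reporter reads, the groups did not overlap from R1 but overlapped from R2. The log2 ratio was −0.76 ± 0.047 in MFL and −0.69 ± 0.020 in mES (difference −0.07, SE 0.029, exact permutation p = 0.2), and the sign of this difference turned to 0.03 when the deposited scale was kept.

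Upstream of R1 but beyond the HS39.5 site, the preference for R1 went on. Between EX, the centre of the upstream FISH probe near the end of Mpg, and HS39.5 (10 fragments), the log2 ratio was 1.08 ± 0.22 in MFL and 0.51 ± 0.088 in mES. Upstream of EX, over 493 fragments that span Il9r, Snrnp25, Rhbdf1 and most of Mpg, R1 made 56.8, 52.0 and 58.5 contacts per kb in MFL and R2 made 36.0, 39.4 and 37.1. In mES cells these values were 95.2, 87.6 and 96.3 from R1 and 79.7, 72.3 and 77.7 from R2. The log2 ratio was 0.57 ± 0.15 in MFL and 0.28 ± 0.026 in mES. In both intervals the ratios of the 3 MFL libraries lay above those of the 3 mES libraries, by 0.57 (SE 0.14) and 0.29 (SE 0.088). From EX to HS39.5, however, the WT library, also of wild type erythroblasts, had a ratio of 0.58, within the mES range of 0.45 to 0.61. Upstream of EX its ratio was 0.58, within the MFL range of 0.40 to 0.66.

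Around the α-globin genes the preference depended on the side. Between Hba-1 and Hba-2 (32 fragments) R1 made 608, 665 and 655 contacts per kb in MFL and R2 made 643, 607 and 544. The ranges overlapped, and the log2 ratio was 0.11 ± 0.18. In mES cells R1 made 211, 219 and 217 and R2 made 212, 213 and 212, a log2 ratio of 0.02 ± 0.028. Between Hba-2 and CTCF +44 (63 fragments) R1 made 250, 277 and 267 contacts per kb in MFL and R2 made 177, 196 and 192, with no overlap. In mES cells R1 made 161, 162 and 163 and R2 made 160, 154 and 157. The log2 ratio was 0.49 ± 0.012 in MFL and 0.05 ± 0.032 in mES, a difference of 0.44 (SE 0.020). Past CTCF +48 lie 379 fragments, 168 of them in Sh3pxd2b and 110 in Ubtd2. The log2 ratio there was 0.27 ± 0.069 in MFL and −0.01 ± 0.034 in mES. The level was lower, at 13.2 to 19.3 contacts per kb in MFL and 38.5 to 43.1 in mES.

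The 5 fragments between the enhancers themselves had different ratios in the 2 cell types. In MFL R1 made 2074, 2142 and 2385 contacts per kb with them and R2 made 1952, 2165 and 2501, a log2 ratio of 0.00 ± 0.079. In mES cells R1 made 2180, 2069 and 2161 and R2 made 3116, 2982 and 3017, a log2 ratio of −0.51 ± 0.024. The cell types differed by 0.51 (SE 0.048).

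With 3 libraries a sign-flip test within a cell type cannot give a p below 0.25, and a permutation test of 3 against 3 cannot give one below 0.1, so no interval can pass 0.05. Over the 10 quantities compared, 6 reached the smallest permutation p of 0.1 (adjusted p = 0.167, exact permutation test), among them those upstream of EX, between EX and HS39.5, between the enhancers, from Hba-2 to CTCF +44 and downstream of CTCF +48.

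**Figure D2:**
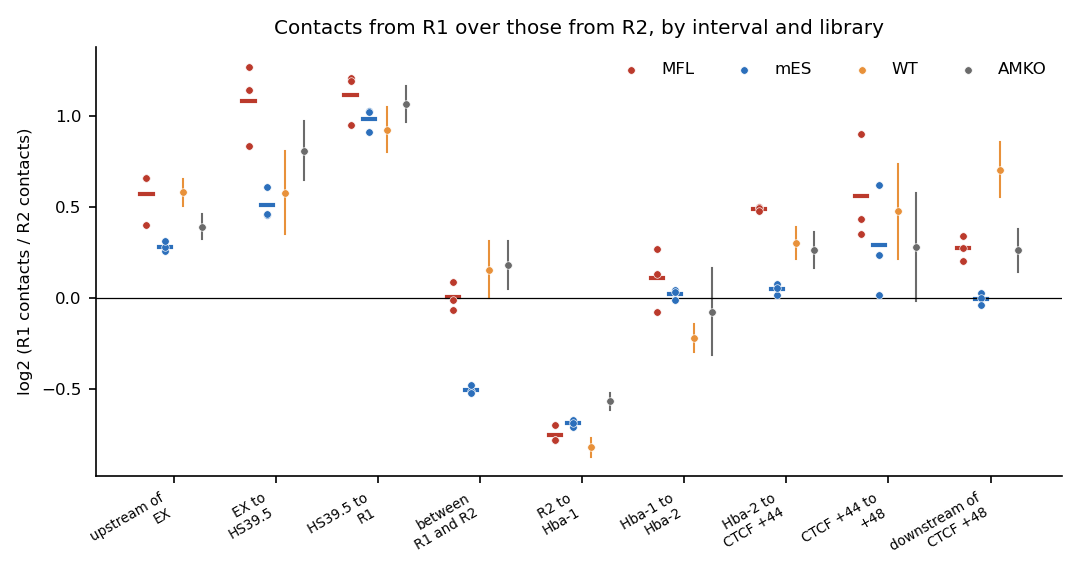
Log2 ratio of contacts from R1 over R2 in each interval, from upstream (left) to downstream (right), with each of the 3 MFL and 3 mES libraries as a point and its mean as a bar, and WT and AMKO as single values with 95% counting intervals. Intervals upstream of R1 lie above 0 in every library, the interval from R2 to Hba-1 lies below 0 in every library, and MFL lies above mES from Hba-2 to CTCF +44.

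The sixth of these quantities was the balance of contacts downstream of R2 against those upstream of R1. The log2 ratio of downstream over upstream contacts from R1 was 0.93, 0.92 and 0.86 in MFL, and from R2 it was 2.01, 1.96 and 2.02. In mES cells it was −0.13, −0.04 and −0.08 from R1 and 0.71, 0.77 and 0.73 from R2. R1 thus had slightly more contacts upstream than downstream in mES cells, while R2 had more downstream in every library. The difference of R1 minus R2 was −1.09 ± 0.060 in MFL and −0.82 ± 0.017 in mES (difference −0.27, SE 0.036, exact permutation p = 0.1).

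**Figure D3:**
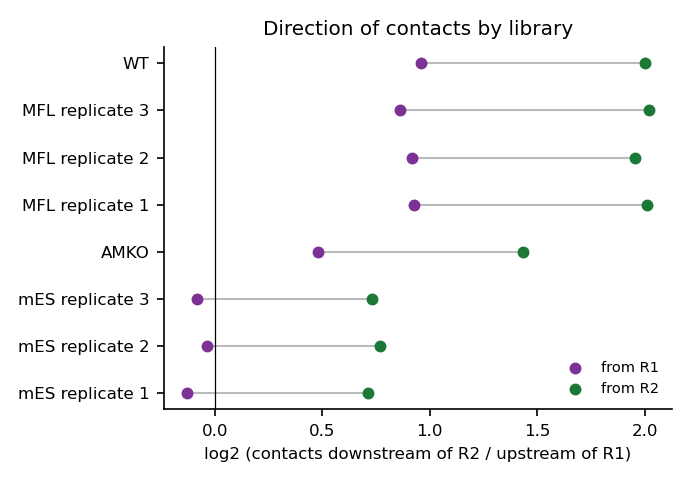
Log2 ratio of contacts downstream of R2 over contacts upstream of R1, from R1 and from R2 in each library, with a line joining the 2 viewpoints of 1 library. R2 lies further right than R1 in all 8 libraries, and both enhancers lie further right in MFL than in mES.

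Since R1 is 5.549 kb further from every downstream fragment, contacts were also set side by side at equal distance from each enhancer's own centre, which compares different fragments. At 5 to 20 kb downstream the log2 ratio was −0.74 ± 0.030 in MFL and −0.23 ± 0.024 in mES. At 20 to 40 kb it was 0.01 ± 0.081 and 0.07 ± 0.022, and at 40 to 80 kb it was 0.75 ± 0.10 and 0.24 ± 0.064. At 40 to 80 kb downstream, the band of R1 thus held more contacts than the band of R2 in every MFL and mES library. Each downstream band of R1 lies 5.549 kb further upstream than that of R2. At 40 to 80 kb the band of R1 includes the Hbq1b start (40.828 kb from R1), which the band of R2 leaves out (35.279 kb from R2). The ratio at 40 to 80 kb therefore also reflects which fragments each band holds, and the size of that part was not tested. On the upstream side the ratio at 5 to 20 kb was 0.83 ± 0.23 in MFL and 0.64 ± 0.053 in mES, and at 40 to 80 kb it was 0.44 ± 0.12 and 0.07 ± 0.033. Leaving out 1 kb around both enhancers takes fragments from R1's downstream band at 5 to 20 kb and from R2's upstream one. In that upstream band R1 had 37 fragments and R2 had 28, and contacts were not divided by length. The ratios at 5 to 20 kb therefore do not compare the enhancers at truly equal distance. How much of each interval's ratio distance accounts for was not tested.

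Single fragments were compared by limma with the library as a block, over those with a mean of at least 50 contacts per 100000. In MFL 258 of the members were tested (259 fragments of chromosome 11), and 40 passed an adjusted p of 0.05, 15.4% of all fragments tested. Of these, 18 were higher from R1 (6.95%) and 22 from R2 (8.49%). In mES cells 322 members were tested and 77 passed (23.9%), 44 higher from R1 (13.7%) and 33 from R2 (10.2%). Nearly all fragments tested are members, so these shares describe the window as a whole. The median log2 difference over all fragments tested was 0.22 in MFL and 0.14 in mES. The MFL count fell to 11 without replicate 1 and 19 without replicate 2, and the mES count to 47 without replicate 3.

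All 22 MFL fragments higher from R2 lie within Nprl3, 1.65 to 15.0 kb downstream of the centre of R2, with a median log2 difference of −1.23. Nprl3 held 78 of the 258 members tested in MFL. Of the 18 higher from R1, 14 lie upstream of R1, 13 of them within Nprl3, and 4 lie downstream of Hba-1. Between HS39.5 and R1, 9 of 17 fragments tested were higher from R1 in MFL and all 17 in mES. In the interval from EX to HS39.5 these counts were 2 of 10 and 7 of 10. Upstream of EX they were 3 of 77 in MFL and 19 of 121 in mES. Of these 19, 8 lie in Rhbdf1 (a regulator of growth factor shedding), where 32 were tested in mES. Another 2 lie in Snrnp25 (a component of the minor spliceosome), where 9 were tested. Between R2 and Hba-1, 22 of 73 fragments were higher from R2 in MFL and 29 of 74 in mES, and none was higher from R1. Between Hba-2 and CTCF +44, 2 of 37 fragments were higher from R1 in MFL and none of 44 in mES, and none was higher from R2 in either. When fragments within 5 kb of the enhancers were left out, 7 calls were left in MFL, all higher from R2, and 50 in mES, of which 29 were higher from R1.

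Calls of the 2 cell types lay on the same side. Of the MFL fragments higher from R1, 12 were also called in mES, 66.7% of the MFL list and 27.3% of the mES list. Of those higher from R2, 21 were shared, 95.5% of the MFL list and 63.6% of the mES list. The WT library, which the MFL calls did not use, was higher from R1 in 15 of the 18 (83.3%, against 55.8% of all fragments tested) and higher from R2 in 22 of the 22 (against 114 of 258 tested). AGATAA was held by 3 of 18 MFL fragments higher from R1 (16.67%), 4 of 22 higher from R2 (18.18%) and 46 of 258 tested (17.83%). In mES cells it was held by 5 of 44 (11.36%), 5 of 33 (15.15%) and 61 of 322 (18.94%).

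The intronic Nprl3 fragment 32142086 to 32144132, the nearest upstream member to R1 among those named, made 1092, 976 and 1065 contacts per 100000 with R1 in MFL and 481, 485 and 364 with R2. In mES cells it made 955, 1014 and 1044 with R1 and 431, 462 and 458 with R2. R1 exceeded R2 in every library, by 1.23 on the log2 scale (SE 0.17, limma adjusted p = 1.73e-05) in MFL and 1.14 (SE 0.066) in mES. The first R1 fragment printed above (32140708 to 32140852) made 476, 434 and 483 contacts with R1 in MFL and 113, 211 and 177 with R2. Its log2 difference was 1.46 (SE 0.30, limma adjusted p = 0.00115) in MFL and 0.97 (SE 0.10, adjusted p = 1.13e-18) in mES. These adjusted p-values measure only the spread between the libraries of a cell type. In limma that spread is shared in part with the other fragments tested, so they do not rest on the 3 libraries of 1 fragment alone. The SE was smaller in mES than in MFL for both fragments, and what made it smaller was not tested.

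Downstream of R2, the intronic Nprl3 fragment 32154079 to 32155101 made 448, 369 and 453 contacts with R1 in MFL and 1470, 1540 and 1568 with R2. In mES cells it made 438, 415 and 474 with R1 and 1010, 928 and 1194 with R2. On the chromosome 11 scale its values from R1 overlapped between the cell types, while its values from R2 were higher in each MFL library than in any mES library. As a share of all reporter reads, its values from R2 overlapped between the cell types. The log2 difference was −1.83 (SE 0.15, limma adjusted p = 1.87e-08) in MFL and −1.21 (SE 0.066) in mES. The first R2 fragment printed above (32153292 to 32153556) made 364, 173 and 325 contacts with R1 in MFL and 1103, 1287 and 1419 with R2, a log2 difference of −2.16 (SE 0.21, limma adjusted p = 1.73e-07).

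At the promoters of the adult α-globin genes the enhancers did not pass the test. The fragment with the Hba-a1 start (32182971 to 32183819, exonic) made 504, 607 and 660 contacts with R1 in MFL and 905, 802 and 625 with R2, a log2 difference of −0.38 (SE 0.19, limma adjusted p = 0.182). In mES cells it made 161, 180 and 198 with R1 and 175, 186 and 197 with R2. The fragment with the Hba-a2 start (32195806 to 32196636, exonic) made 644, 542 and 542 with R1 in MFL and 622, 696 and 541 with R2, a log2 difference of −0.10 (SE 0.18, adjusted p = 0.750). Both promoter fragments were contacted more in every MFL library than in any mES library from either enhancer. Hba-a1 and Hba-a2, like the θ-globin genes Hbq1b and Hbq1a, are near-identical copies, and reads could be split between them.

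The promoters of both θ-globin genes were called higher from R1 in MFL. The Hbq1b start (32186469 to 32187032) made 728, 477 and 522 contacts with R1 and 396, 359 and 299 with R2 (log2 difference 0.68, SE 0.22, limma adjusted p = 0.0370). The Hbq1a start (32199493 to 32200137) made 560, 564 and 266 with R1 and 141, 253 and 252 with R2 (1.04, SE 0.32, limma adjusted p = 0.0271). In mES cells neither passed, with log2 differences of −0.16 (SE 0.17) and −0.01 (SE 0.18). In the WT library these fragments made 491 and 454 contacts with R1 and 509 and 391 with R2. Both calls were lost under many alternatives, including DESeq2 and no filter on low values, and the Hbq1b call whenever any 1 MFL library was left out.

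The other gene starts were not called in MFL. Nprl3 itself starts at its downstream end (32167510 to 32168370), where R1 made 392, 347 and 325 contacts in MFL and R2 made 424, 422 and 429 (log2 difference −0.26, SE 0.23, limma adjusted p = 0.488). The Hba-x start made 84.0, 347 and 207 with R1 and 226, 422 and 299 with R2 (−0.70, SE 0.32, adjusted p = 0.162), lower from R1 in each of the 3 libraries. The start of Mpg, a DNA repair glycosylase, made 168, 86.7 and 148 contacts with R1 and 113, 42.2 and 46.7 with R2 in MFL (0.97, SE 0.52, adjusted p = 0.223), where 42.2 is 2 reads and under the level of 3 reads, and it passed in mES (0.70, SE 0.23, limma adjusted p = 0.00963). The starts of Sh3pxd2b and Ubtd2, past the CTCF +48 site, were at or under the level of 3 reads in MFL and were not tested there.

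Among the sites that the study used as viewpoints, EX (32131944 to 32132753, exonic in Mpg and Nprl3) made 112, 347 and 197 contacts with R1 in MFL and 28.3, 42.2 and 84.0 with R2. The values 28.3 and 42.2 are 1 and 2 reads, under the level of 3 reads, so the fitted difference depends on the 10 added before the log. R1 was higher in each library (log2 difference 1.86, SE 0.51, limma adjusted p = 0.0151), but the call was lost without replicate 1 and without replicate 2. In mES cells EX made 154, 151 and 149 with R1 and 127, 97.7 and 111 with R2 (0.41, SE 0.17, adjusted p = 0.0668). HS39.5 made 262, 230 and 255 contacts with R1 in mES cells and 127, 186 and 163 with R2 (0.63, SE 0.13, limma adjusted p = 1.81e-05). In MFL it made 168, 260 and 256 with R1 and 170, 106 and 149 with R2 (0.65, SE 0.38, adjusted p = 0.254). CTCF +44 made 112, 130 and 108 contacts with R1 in MFL and 56.5 (2 reads), 84.4 and 93.3 with R2, and was not called.

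**Figure D4:**
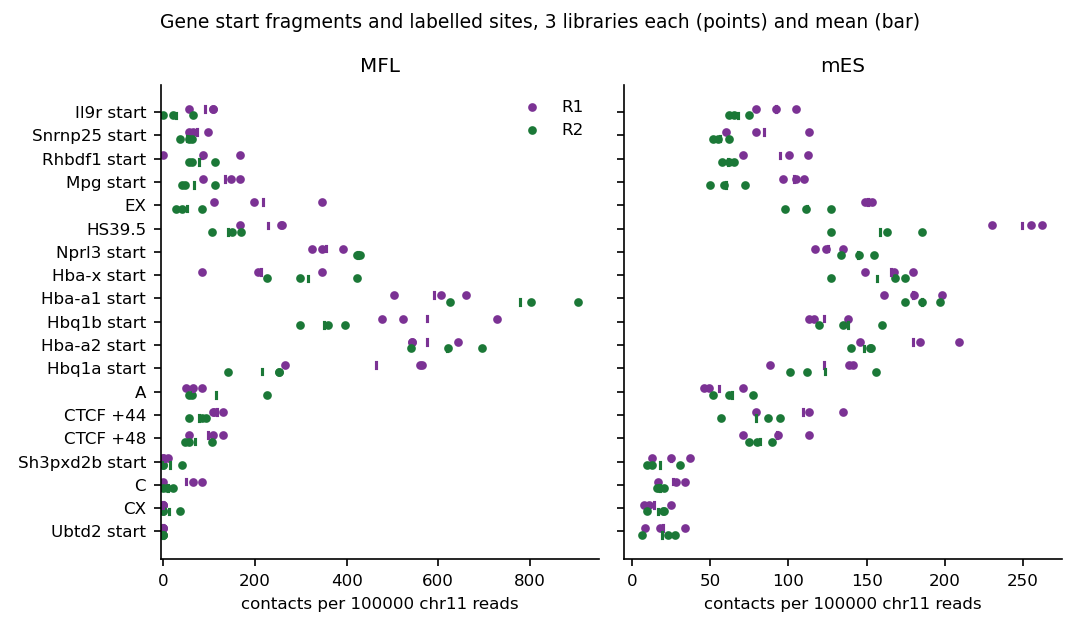
Contacts per 100000 chromosome 11 reads from R1 and from R2 at the gene starts and at the sites that the study captured, with each MFL and mES library as a point and separate horizontal scales for both cell types. The points lie further right (more contacts) from R1 than from R2 at EX in MFL, and overlap at the Hba-a2 start in MFL.

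The difference between the enhancers was compared between MFL and mES for 284 members. None passed an adjusted p of 0.05 by limma (0% of those tested), with 37 at an unadjusted p under 0.05, of which 23 were relatively higher from R1 in MFL. edgeR called 2 and DESeq2 called 0. Between the enhancers 4 of the 5 fragments were higher from R2 in mES and none in MFL. For 32148903 to 32149605, named after its values were seen, the MFL minus mES difference was 0.60 (limma adjusted p = 0.162). The 6 fragments with the largest differences each had an MFL column at 0 reads, so no values are given for them.

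In AMKO the labels were checked on the deleted genes first. Between Hba-1 and Hba-2, R1 made 639 contacts per kb in WT and 52.5 in AMKO, and R2 made 745 and 55.4. These were 8.73% (95% Wilson interval 8.38% to 9.10%) of chromosome 11 reads from R1 and 10.2% (9.87% to 10.5%) from R2 in WT, and 0.718% (0.632% to 0.815%) and 0.757% (0.684% to 0.838%) in AMKO. AMKO thus kept some reads on a region that it lacks, and their source was not tested. To set the bounds of the deleted stretch, the run of fragments around Hba-1 below 50% of the WT level was taken, 40 fragments from 32182971 to 32199492 (16.522 kb), so its low AMKO level is fixed by that choice. WT and AMKO have 1 library each and therefore no replicate check, and their 95% intervals cover counting error only.

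The ratio of R1 over R2 kept its sign just upstream of R1 and just downstream of R2 in both genotypes. Between HS39.5 and R1 the log2 ratio of R1 over R2 was 0.92 (95% interval 0.80 to 1.05) in WT and 1.07 (0.97 to 1.17) in AMKO. Between R2 and Hba-1, R1 made 559 contacts per kb in WT and 539 in AMKO, and R2 made 989 and 801. The log2 ratio there was −0.82 (−0.88 to −0.77) in WT and −0.57 (−0.62 to −0.52) in AMKO, a WT minus AMKO difference of −0.25 (−0.32 to −0.18). With and without the deleted stretch and on the chromosome 11 and window scales, this difference ranged from −0.28 to −0.16. The levels themselves had no direction that held: as a share of window reads, this interval took 27.9% from R1 and 46.4% from R2 in WT and 35.3% and 52.6% in AMKO, higher in AMKO from both enhancers. Upstream of EX the ratio was 0.58 (0.51 to 0.65) in WT and 0.39 (0.32 to 0.46) in AMKO, a difference of 0.19 (0.09 to 0.29). From EX to HS39.5 it was 0.58 (0.35 to 0.80) in WT and 0.81 (0.65 to 0.97) in AMKO, and the interval of the difference, −0.51 to 0.04, held 0. Between the enhancers it was 0.15 in WT and 0.18 in AMKO, closer to the MFL than to the mES value.

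The interval from Hba-2 to CTCF +44 begins inside the deleted stretch, and 55 of its 63 fragments (21.427 kb) lie beyond it. Over these 55, with the deleted stretch also left out of the total, R1 made 334 contacts per kb in WT and 211 in AMKO, and R2 made 255 and 172. Both enhancers had fewer contacts there in AMKO, also on the window scale. The ratio of R1 over R2 was 0.39 (0.29 to 0.49) in WT and 0.29 (0.19 to 0.39) in AMKO, a difference of 0.10 (−0.05 to 0.24). On the window scale the difference was 0.19 (0.05 to 0.33), so whether its interval holds 0 depends on the scale. Past CTCF +48 the ratio was 0.70 (0.55 to 0.85) in WT and 0.26 (0.14 to 0.38) in AMKO, a difference of 0.44 (0.25 to 0.63). The AMKO ratio lay within the range of the wild type MFL libraries, 0.20 to 0.34, and the WT ratio lay above it. Genotype and differences between libraries cannot be told apart here. The balance of downstream over upstream contacts without the deleted stretch was 0.49 from R1 and 1.59 from R2 in WT, and 0.43 and 1.39 in AMKO. Its R1 minus R2 difference was −1.11 in WT and −0.96 in AMKO, which differed by −0.15 (−0.24 to −0.05). With the deleted stretch kept, it was −1.04 and −0.95, which differed by −0.09 (−0.18 to 0.01).

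The WT library and the 3 MFL libraries, all wild type erythroblasts, did not give the same ratios. WT lay outside the range of the MFL libraries in 7 of 9 intervals, and its 95% interval lay outside that range in 4. A further library of the same kind often falls outside a range of 3, so the count of 7 says little by itself. Between Hba-1 and Hba-2 the log2 ratio was −0.22 (−0.30 to −0.14) in WT and −0.08 to 0.27 in MFL. From EX to HS39.5 it was 0.58 (0.35 to 0.80) in WT and 0.83 to 1.27 in MFL. From Hba-2 to CTCF +44, deleted stretch kept, it was 0.30 (0.21 to 0.39) in WT and 0.48 to 0.50 in MFL. Past CTCF +48 it was 0.70 (0.55 to 0.85) in WT and 0.20 to 0.34 in MFL. The gene bodies of Hba-a1 and Hba-a2 had log2 ratios of −0.26 and −0.25 in WT and of 0.30 ± 0.27 and 0.24 ± 0.080 in MFL. The 4 fragments downstream of Hba-1 that MFL called higher from R1 had log2 ratios of −0.05, −0.01, 0.21 and −0.27 in WT. WT was sequenced deeper than MFL, and the part of depth in these differences was not tested.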

How the data were processed

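NG Capture-C libraries captured from R1 and R2 were compared in MFL and mES cells (3 libraries each) and in WT and AMKO erythroblasts (1 library each). The authors made DpnII 3C libraries with double oligonucleotide capture and, per their notes, used Trim Galore, Bowtie (versions not given in the sources used here), mm9 and their own scripts. The values that were deposited, nearest to RPM, give reads out of 100000 reporter reads for each viewpoint. They are whole multiples of 1 read within 0.1 read, so the whole reads were recovered. How the authors filtered and mapped reads could affect short or repeated fragments and could not be repeated from these values. All 110170 rows of chromosome 11 matched fragments of an in-silico DpnII digest of NCBIM37, the same build, whose annotation gave the gene positions. Per the labels, groups and replicate numbers came from titles and descriptions. The study's methods call the replicates biological.

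Members were scaled to 100000 chromosome 11 reads of the viewpoint after fragments within 1 kb of R1 or R2 were left out. limma 3.58.1 (R 4.3.3) was run on log2(value + 10) with the library as a block, since both viewpoints were captured from the same library, over fragments with a mean of at least 50, with Benjamini-Hochberg adjustment and a threshold of 0.05. Fold changes on this scale understate changes of low fragments. The MFL and mES difference was tested on per-library differences. Intervals, bounded by sites that the labels give with coordinates, had exact permutation tests over libraries, all two-sided. Single libraries have 95% intervals, exact (Clopper-Pearson) for ratios of reads and by normal approximation for their differences. edgeR 4.0.16 and DESeq2 1.42.0 were run on the recovered reads as alternatives, DESeq2 being the tool that the study names for its differential analysis. Named fragments hold a protein-coding gene's start, or are chromosome 11 viewpoints of the series, or have the 5 smallest adjusted p-values of a direction with the same sign in all libraries, or, where none passed, the 3 largest differences of a direction. Members and lists were chosen with earlier results of these data known. Beta-globin viewpoints on chromosome 7 in the same files were not used.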

Additional observations from a re-analysis of the deposited data

How the results depend on the processing

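The MFL count of 40 fragments became 23 with a mean of at least 20, 20 with no filter, 17 in 2 kb bins, 10 in 10 kb bins (chosen after seeing the data), 7 with 5 kb left out around the enhancers, 14 with DESeq2 and 84 in one fit of both cell types, and 11 to 28 with 1 library left out. The mES count of 77 became 49 with no filter, 31 in 2 kb bins, 12 in 10 kb bins, 50 with 5 kb left out, 33 with DESeq2 and 28 in one fit, and 47 to 68 with 1 library left out. edgeR called 45 and 75. For MFL against mES the count of 0 became 4 with no filter, 1 in 2 kb bins, 1 on the deposited scale and 2 with edgeR. The causes were not tested. One fit of both cell types shares 1 spread between a shallow and a deep group, and bins hold fewer features.

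Without the library as a replicate block, 38 fragments were called in MFL and 76 in mES. MFL and mES replicate numbers share only a number: deviations of same-numbered libraries correlated at 0.0531, −0.078 and −0.0139 over 284 fragments (all pairs −0.083 to 0.099). Pairing them in a replicate block called 0 fragments, with 33 at an unadjusted p under 0.05.

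Among the interval ratios, most kept their direction. The MFL ratio between the enhancers, near 0, became −0.032 with reads summed and −0.042 to 0.036 with 1 library left out. The MFL minus mES difference from R2 to Hba-1 became 0.034 on the deposited scale. In mES the ratio from Hba-1 to Hba-2 became −0.045 and that from Hba-2 to CTCF +44 −0.019 with 5 kb left out, and the ratio downstream of CTCF +48 became 0.022 on the window scale and −0.022 to 0.012 with 1 library left out. On the deposited scale the WT ratios were 0.70 upstream of EX, −0.70 from R2 to Hba-1, −0.10 from Hba-1 to Hba-2 and 0.42 from Hba-2 to CTCF +44, and those of AMKO were 0.49 upstream of EX, −0.47 from R2 to Hba-1 and 0.36 from Hba-2 to CTCF +44. On the window scale the WT ratios of these 4 intervals were 0.67, −0.74, −0.13 and 0.39. With 5 kb left out the ratio from R2 to Hba-1 was −0.66 in WT and −0.38 in AMKO, and the balance of downstream over upstream contacts was −0.83 and −0.68. Leaving the deleted region out gave 0.39 from Hba-2 to CTCF +44 in WT, and doing so on the window scale (chosen after seeing the data, as are the levels that follow) gave 0.477 there and −0.758 from R2 to Hba-1. The log2 ratio of the WT over the AMKO contact level from R2 to Hba-1 was 0.051 from R1 and 0.304 from R2. On the window scale it was −0.340 and −0.180, without the deleted region 0.201 and 0.476, and with both −0.0878 and 0.0923. From Hba-2 to CTCF +44 it was 0.839 and 0.804, and became 0.448 and 0.320, 0.666 and 0.571, and 0.378 and 0.187. The ratio between the enhancers has no fragments with 5 kb left out, and the ratio from Hba-1 to Hba-2 has none without the deleted region.

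Of the named fragments that were not called, the MFL difference at the Rhbdf1 start became 0.58 with edgeR and −1.61 to 0.91 with 1 library left out (positive without replicate 1), and that at the Hba-a2 start −0.177 to 0.025 (positive without replicate 2). In mES the Hba-x start ranged from −0.064 (without replicate 2) to 0.207 with 1 library left out, the Hbq1a start became 0.015 on the window scale, 0.043 with edgeR and 0.0076 with DESeq2 and ranged from −0.241 to 0.37 (positive without replicate 2), and CTCF +48 ranged from −0.0047 (without replicate 3) to 0.252. Depth limits single fragments in MFL most, and the WT and AMKO comparison has no replicates.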
